A study of Homo sapiens with 9 samples.

Results

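The STEAP family was examined here through its 4 members, STEAP1, STEAP2, STEAP3 and STEAP4, taken by symbol from a table of 28216 genes counted in 9 RNA-seq libraries of human prostate cancer cell lines. All 4 symbols were in the table. Polyadenylated RNA came from PC3, an androgen-independent line from a bone metastasis, and from LNCaP clone FCG, an androgen-responsive line from a lymph node metastasis, both labelled wild type. LNCaP cells spent 24 h in phenol red-free RPMI with charcoal-stripped serum, which lowers steroid hormones, and then 48 h with either 10 nM DHT or the vehicle, 0.01% ethanol. DHT is dihydrotestosterone, a potent androgen, and the paper's methods use that name for the synthetic androgen R1881, so the group is called androgen-treated here. PC3 cells were untreated and grew in F12K medium with standard serum. Each group had 3 libraries, which the labels number without saying whether they were separate cultures, so p-values measure the spread between these libraries, which may be technical. Each line stands for a single established culture. In a comparison of PC3 with LNCaP, the effects of the line, the medium and the serum cannot be told apart.

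STEAP proteins (six-transmembrane epithelial antigen of the prostate) are membrane enzymes that pass electrons across a membrane through a heme group and reduce ferric iron and cupric copper. The reduced metal can then be carried into the cell by separate transporters, such as SLC11A2 (also called DMT1) for iron and SLC31A1 (CTR1) for copper. STEAP2, STEAP3 and STEAP4 carry a cytosolic domain that takes electrons from NADPH, whereas STEAP1 lacks it. STEAP1 and STEAP2 were named for their abundance in prostate epithelium, STEAP3 is the ferrireductase of the transferrin cycle in red cell precursors, and STEAP4 is known as an androgen-responsive gene of prostate cells and as a gene of inflammation and metabolism in adipose tissue.

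STEAP1, STEAP2 and STEAP4 lie on the long arm of chromosome 7 in GENCODE 44 on GRCh38. STEAP1 spans chr7:90154456-90164829 on the plus strand, and STEAP2 follows at chr7:90167590-90238137 on the same strand, with 2760 bases between the gene models. STEAP4 lies 1847.6 kb before STEAP1, at chr7:88270892-88306894 on the minus strand. STEAP3 is on chromosome 2, at chr2:119223831-119265652 on the plus strand. The representative transcripts have 5 exons in STEAP1, 6 in STEAP2, 6 in STEAP3 and 5 in STEAP4, and encode 339, 490, 498 and 459 residues. STEAP1 is thus the shortest protein of the family, the member without the NADPH-binding domain.

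RefSeq places promoter windows (250 bases before to 50 after a gene's start, GRCh38.p14) for each member, with a second window for STEAP2. The STEAP2 windows lie inside its GENCODE model, well past that model's start at chr7:90167590. They are therefore farther from STEAP1 than the 2760 bases between the gene models. The window of STEAP1 is shown beside that of its paralog STEAP1B. Most of the window lies before the gene's start, so the likeness of the pair here does not show how reads can be assigned. Capitals mark the 10 bases at which this pair differs, and the other 290 of 300 bases (96.7%) are identical.
STEAP1 (chr7:90154219-90154518, plus strand): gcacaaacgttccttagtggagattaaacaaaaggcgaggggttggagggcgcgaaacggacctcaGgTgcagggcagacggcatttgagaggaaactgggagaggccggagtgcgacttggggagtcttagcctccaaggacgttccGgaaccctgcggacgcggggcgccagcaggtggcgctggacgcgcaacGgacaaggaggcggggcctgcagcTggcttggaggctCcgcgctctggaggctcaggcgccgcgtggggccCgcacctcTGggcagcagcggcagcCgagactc
STEAP1B (chr7:22500139-22500438, minus strand): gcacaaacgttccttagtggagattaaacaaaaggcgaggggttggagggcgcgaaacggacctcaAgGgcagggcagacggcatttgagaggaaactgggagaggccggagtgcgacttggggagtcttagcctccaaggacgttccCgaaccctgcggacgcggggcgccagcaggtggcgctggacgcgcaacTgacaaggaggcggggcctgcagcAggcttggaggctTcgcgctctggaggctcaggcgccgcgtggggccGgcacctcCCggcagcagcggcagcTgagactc
The windows of STEAP4, the member with the widest range of levels, and of STEAP3, the member with the opposite direction between the lines, are shown next, with that of STEAP2, which neighbours STEAP1. Capitals mark matches to the GC box GGGCGG on either strand, the binding motif of SP1-type factors.
STEAP4 (chr7:88306845-88307144, minus strand): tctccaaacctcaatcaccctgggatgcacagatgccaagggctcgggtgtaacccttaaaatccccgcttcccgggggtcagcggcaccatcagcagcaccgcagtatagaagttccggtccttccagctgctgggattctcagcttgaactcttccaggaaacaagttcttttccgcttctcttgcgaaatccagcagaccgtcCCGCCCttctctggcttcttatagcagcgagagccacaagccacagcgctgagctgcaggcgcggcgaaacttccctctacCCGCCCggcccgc
STEAP3 (chr2:119223584-119223883, plus strand): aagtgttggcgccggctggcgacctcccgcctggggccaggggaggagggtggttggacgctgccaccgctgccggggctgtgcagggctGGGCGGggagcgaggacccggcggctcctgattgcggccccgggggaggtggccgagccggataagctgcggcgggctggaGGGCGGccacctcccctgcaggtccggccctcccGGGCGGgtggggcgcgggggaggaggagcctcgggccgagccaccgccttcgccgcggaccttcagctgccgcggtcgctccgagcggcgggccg
STEAP2 (first window, chr7:90211490-90211789, plus strand): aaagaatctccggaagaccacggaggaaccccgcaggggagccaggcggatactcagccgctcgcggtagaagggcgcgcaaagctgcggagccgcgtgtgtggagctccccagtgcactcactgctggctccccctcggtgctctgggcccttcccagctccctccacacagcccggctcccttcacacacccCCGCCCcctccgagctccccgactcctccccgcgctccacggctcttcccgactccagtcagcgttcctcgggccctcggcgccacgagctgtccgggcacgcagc
GGGCGG occurred 3 times in the STEAP3 window, 2 times in that of STEAP4 and 1 time in the first window of STEAP2, and was not in the STEAP1 window, while 45% of all 35116 RefSeq promoter windows held it. G and C made up 66.7% of the STEAP1 window, 70.3% of the first STEAP2 window, 78.7% of the STEAP3 window and 58.7% of the STEAP4 window. The second STEAP2 window (chr7:90213570-90213869) had 33.7%, and held TATAAA once and CCAAT 2 times, motifs present in 11.5% and 34.6% of all windows. AGAACA, the half-site of the androgen response element, was in no window of the 4 members on either strand, against 14.8% of all windows. These are matches to letters in 300 bases at the gene start, and elements farther away were not searched.

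The libraries held 17397706 to 25640325 counts on genes (median 21434125), so the limit that a count of 0 allows (3 counts) was 0.117 to 0.172 CPM (counts scaled to a common library total). The cell line labels were compared with defining markers. KLK3, which encodes prostate-specific antigen and marks LNCaP, had 2, 2 and 20 counts in PC3, 9831 to 12789 in vehicle-treated LNCaP and 86989 to 88995 in androgen-treated LNCaP. The summed level of 6 PC3 markers, including VIM, CD44 and CAV1, was 2573 to 2704 CPM in PC3 and 2.41 to 24.7 in LNCaP. FOLH1 had 0, 1 and 7 counts in the PC3 libraries and 20441 to 25204 in the LNCaP libraries. Leukocyte markers summed to at most 0.551 CPM in any library. Fibroblast markers summed to 33.8 to 41.7 CPM in PC3, 12.1 to 15.3 with androgen and 21.7 to 24.8 with vehicle. Of these, COL1A1 alone had means of 37.9, 13.3 and 22.2 CPM. Endothelial markers summed to 1.89 to 3.40 CPM in PC3, 6.62 to 7.94 with androgen and 16.3 to 18.4 with vehicle. In bulk RNA, fewer cells of a type and less RNA per cell cannot be told apart.

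STEAP1 was abundant in LNCaP and low in PC3. Its level was 16.5, 16.5 and 17.8 CPM in the 3 PC3 libraries, 398, 429 and 427 CPM in the androgen-treated libraries and 299.6, 314 and 304 CPM in the vehicle-treated libraries. Every LNCaP library lay far above every PC3 library, and the androgen-treated libraries all lay above the vehicle-treated ones. Against androgen-treated LNCaP, STEAP1 was 24.6-fold lower in PC3 (log2 fold change -4.62, SE 0.07, adjusted p = 6.56e-09, edgeR quasi-likelihood test with Benjamini-Hochberg adjustment, as for all adjusted p below). Against vehicle-treated LNCaP it was 17.8-fold lower (log2 fold change -4.15, SE 0.06, adjusted p = 8.18e-09). It was 1.37-fold higher with androgen than with vehicle (log2 fold change 0.45, SE 0.04, adjusted p = 2.17e-07), which passed the adjusted p but not the 2-fold limit used for a call. Of the 1541 stretches of 74 bases in STEAP1 exons, 14.5% also occurred elsewhere, 224 of them in STEAP1B transcripts, so reads from those stretches could not be assigned to either gene alone. STEAP1B itself had 1 to 6 counts in every library.

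STEAP2, which reduces iron and copper at the plasma membrane and in Golgi and endosomal vesicles, showed the larger difference between the lines of the neighbouring pair. It stood at 12.8, 13.0 and 18.8 CPM in PC3, 894, 913 and 894 CPM in androgen-treated LNCaP and 770.2, 815 and 786 CPM in vehicle-treated LNCaP. PC3 replicate 3 was the highest of its group and still far under every LNCaP library. PC3 was 60.5-fold lower than androgen-treated LNCaP (log2 fold change -5.92, SE 0.16, adjusted p = 3.75e-08) and 52.3-fold lower than vehicle-treated LNCaP (log2 fold change -5.71, SE 0.16, adjusted p = 4.09e-08). Without PC3 replicate 3 these log2 fold changes were -6.00 and -5.82. Between the LNCaP groups the difference was small, 1.14-fold higher with androgen (log2 fold change 0.19, SE 0.04, adjusted p = 0.000346). That small difference depended on the scaling. TMM factors, which set the typical gene near no change, gave 900.2 ± 11.2 and 791 ± 22.7 CPM (SD, n = 3), while library size alone gave 852 and 830 CPM with overlapping libraries (log2 fold change 0.04, adjusted p = 0.329) and moved the median of all genes to -0.16. With all 9 libraries in a single edgeR fit the adjusted p was 0.173.

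STEAP3 had the opposite order between the lines. Its level was 41.5, 48.9 and 48.2 CPM in PC3, 14.5, 15.0 and 13.5 CPM in androgen-treated LNCaP and 19.2, 20.3 and 18.7 CPM in vehicle-treated LNCaP. The PC3 libraries were the highest and the androgen-treated libraries the lowest, with no overlap between groups. STEAP3 was 3.24-fold higher in PC3 than in androgen-treated LNCaP (log2 fold change 1.69, SE 0.10, adjusted p = 1.31e-06) and 2.42-fold higher than in vehicle-treated LNCaP (log2 fold change 1.27, SE 0.09, adjusted p = 4.54e-06). With androgen it was 1.36-fold lower than with vehicle (log2 fold change -0.44, SE 0.08, adjusted p = 0.000174), again under the 2-fold limit. The antisense gene STEAP3-AS1 overlaps STEAP3 and had 0 to 2 counts. Counting without regard to strand would have dropped 10.2% to 15.3% of the STEAP3 counts as ambiguous.

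STEAP4 differed most between the LNCaP groups. It had 3012, 3638 and 3492 counts in the androgen-treated libraries, 2, 2 and 9 in the vehicle-treated libraries and 37, 36 and 40 in the PC3 libraries. In CPM these were 135, 179.5 and 176 with androgen, 0.105, 0.110 and 0.457 with vehicle, and 1.46, 1.57 and 1.58 in PC3. The 3 groups did not overlap, and 2 of the vehicle libraries were under the 3 counts that an absent transcript allows. From the summed counts, 10142 against 13, androgen-treated cells held 712-fold more than vehicle-treated cells (exact 95% interval 416 to 1337, counting error only). The fitted log2 fold change was 9.45 (SE 0.22, adjusted p = 9.31e-13). That SE was derived from the test statistic and understates the uncertainty here, since the interval from counting error alone is wider. Vehicle replicate 3 carried 9 of the 13 vehicle counts, and without it the ratio of counts was 1514 (591 to 5558) and the fitted log2 fold change 10.47. PC3 lay between the LNCaP groups, 106-fold below the androgen-treated libraries (log2 fold change -6.73, SE 0.15, adjusted p = 1.69e-08) and, by 113 against 13 counts, 6.72-fold above the vehicle-treated libraries (exact 95% interval 3.78 to 13.0). Without vehicle replicate 3 that ratio was 14.3 (5.43 to 53.4). STEAP4 passed the filter on low counts (over 3 CPM in at least 3 libraries) only through the androgen-treated group. The filter thus selected it for a difference wherever it was tested, and it was not tested between PC3 and vehicle-treated LNCaP. Fits without the filter and over all 9 libraries gave log2 fold changes of 2.75 and 2.72 there (adjusted p = 0.000249 and 0.000142).

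**Figure D1:**
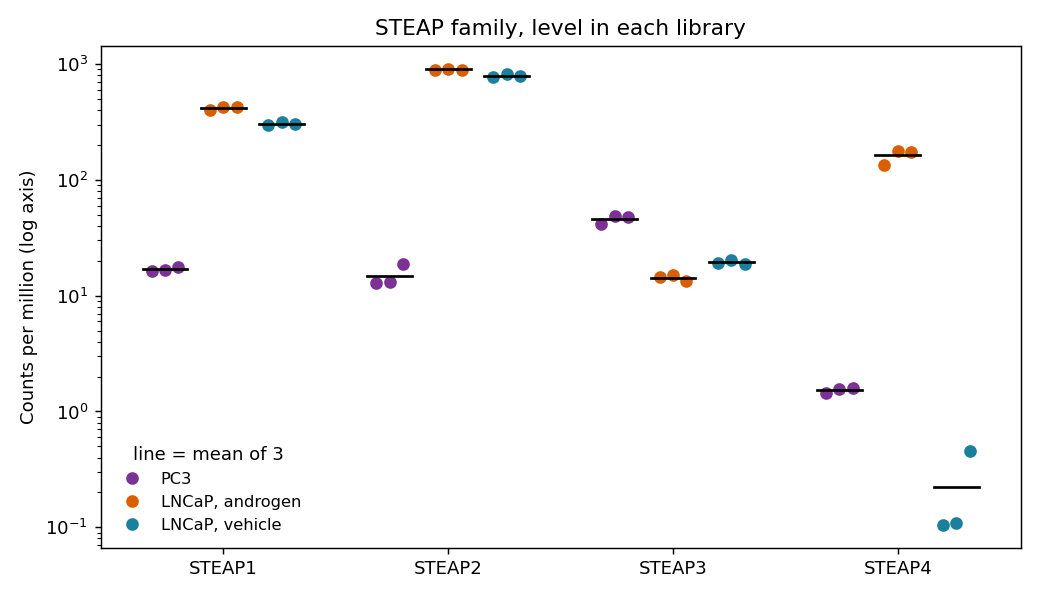
Level of each STEAP gene in each of the 9 libraries, in CPM on a log axis, with a line at the mean of the 3 libraries of a group. STEAP1 and STEAP2 are high in both LNCaP groups and low in PC3, STEAP3 is highest in PC3, and STEAP4 runs from 0.105 CPM with vehicle to 179.5 CPM with androgen.

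Read against all genes, the calls between the lines were common ones. A call here needs a fold change of 2 or more together with an adjusted p below 0.05. Against androgen-treated LNCaP, PC3 had 3 members called lower and 1 called higher, and of 12541 genes tested 46.0% were called, 22.1% lower and 24.0% higher. Against vehicle-treated LNCaP, 2 members were lower and 1 higher of the 3 tested, and of 12686 genes 43.2% were called, 21.0% lower and 22.2% higher. Between androgen and vehicle, 1 of the 4 members was called, STEAP4, higher with androgen, and of 11697 genes 14.0% were called, 6.54% higher and 7.49% lower. STEAP4 entered its tests only through the androgen-treated group, so the filter selected it for a difference and its calls are not read against these shares. The comparisons share libraries, since each group enters a pair of them, so they are not independent of each other.

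**Figure D2:**
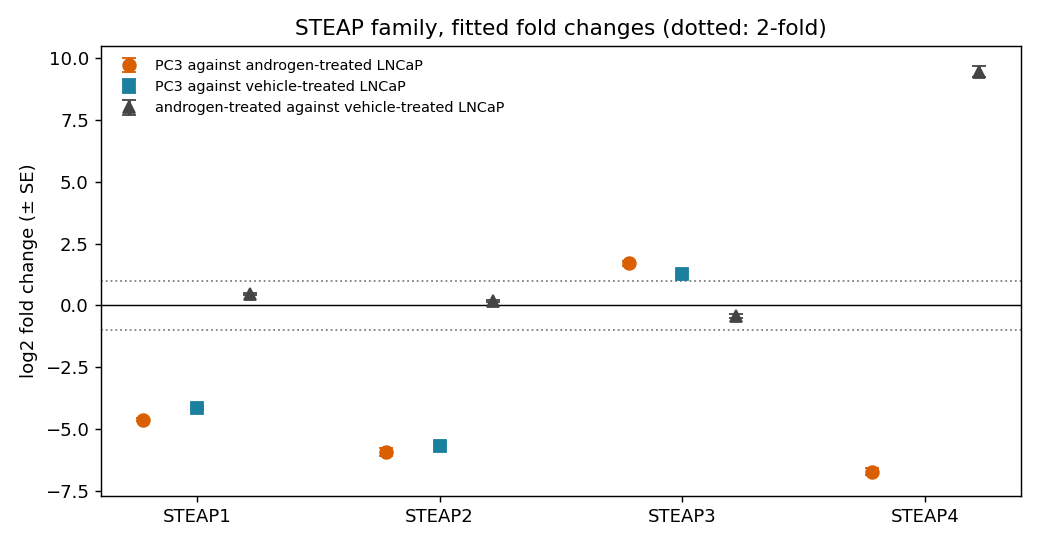
Fitted log2 fold change of each STEAP gene in the 3 comparisons, with bars of 1 SE (derived from the test statistic) and dotted lines at a 2-fold change. STEAP4 is 9.45 between androgen and vehicle, while STEAP1, STEAP2 and STEAP3 lie inside the dotted lines in that comparison. STEAP4 was not tested between PC3 and vehicle-treated LNCaP.

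Levels of different genes were compared per length, as RPKM (CPM per kilobase of merged exons). In androgen-treated LNCaP the order was STEAP1 at 271 ± 11.2, STEAP2 at 103 ± 1.28, STEAP4 at 14.5 ± 2.21 and STEAP3 at 3.13 ± 0.167 RPKM (SD, n = 3). With vehicle the order was STEAP1 at 198 ± 4.74, STEAP2 at 90.7 ± 2.61, STEAP3 at 4.26 ± 0.175 and STEAP4 at 0.0199 ± 0.0180 RPKM. STEAP4 thus stood last with vehicle and above STEAP3 with androgen. In PC3, STEAP1 at 11.0 ± 0.478 and STEAP3 at 10.1 ± 0.899 RPKM differed by about their spread, STEAP2 stood at 1.71 ± 0.388 and STEAP4 at 0.136 ± 0.00605. With the longest transcript as length (1219 bases in place of 1544), STEAP1 in PC3 was 13.9 RPKM. The length of STEAP3 changed relatively less, from 4562 to 4259 bases, so the near tie of the pair depended on the gene model.

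The summed RPKM of the 4 members was 21.4, 23.1 and 24.4 in PC3, 375, 402 and 397 in androgen-treated LNCaP and 287, 301 and 291 in vehicle-treated LNCaP. The makeup of this sum is given next as a description, with no test. STEAP1 made up 47.9% ± 1.85 of it in PC3, 69.1% ± 0.436 with androgen and 67.6% ± 0.108 with vehicle (SD, n = 3). STEAP3 made up 44.1% ± 2.10 in PC3 and 0.801% ± 0.0527 and 1.45% ± 0.0372 in the LNCaP groups. STEAP2 accounted for 7.39% in PC3, 26.4% with androgen and 30.9% with vehicle, and STEAP4 for 0.595%, 3.70% and 0.00681%. STEAP1 was therefore the leading member per length in both LNCaP groups, while in PC3 the order of it and STEAP3 was not the same in every library, with STEAP3 at 46.5% and STEAP1 at 46.4% in PC3 replicate 2.

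**Figure D3:**
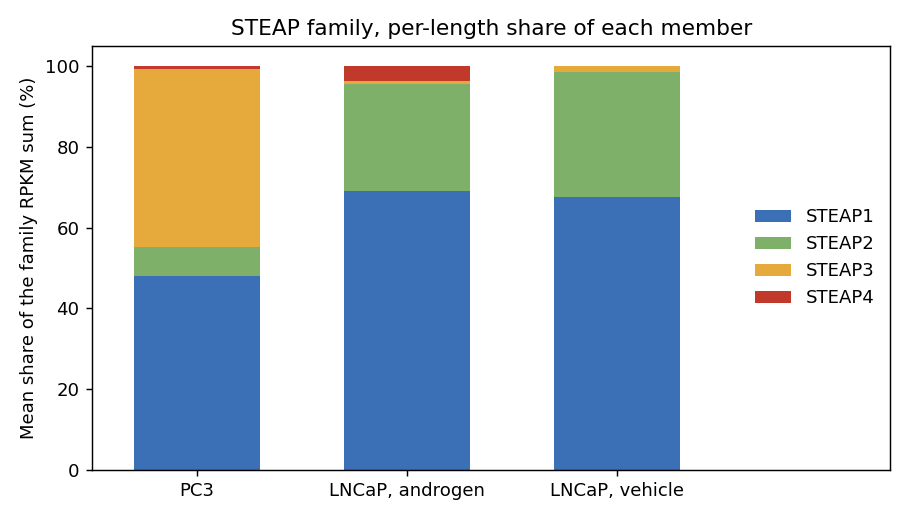
Mean share of each STEAP gene in the summed RPKM of the family, in percent, for the 3 groups of 3 libraries. STEAP3 fills 44.1% of the bar in PC3 and 0.801% in androgen-treated LNCaP, and STEAP4 is visible with androgen at 3.70%.

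STEAP1 and STEAP2 lie next to each other on the same strand, and their ratio within a library needs no scaling between libraries. There were 0.778, 0.787 and 1.06 STEAP2 counts per STEAP1 count in PC3, 2.25, 2.13 and 2.09 with androgen and 2.57, 2.60 and 2.59 with vehicle. The 3 groups did not overlap, and the mean log2 ratio differed by -1.32 for PC3 minus androgen, by -1.58 for PC3 minus vehicle and by -0.26 for androgen minus vehicle. In each of the 3 comparisons the exact two-sided permutation p was 0.1, the smallest that 3 libraries against 3 can give. The root mean square distance between the profiles of this pair over the 9 libraries (log2 CPM, each gene centred on its mean) was 0.70, against 2.79 to 4.28 for the other pairs of members.

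The antisense transcript STEAP2-AS1 runs from chr7:89882353-90211635 on the minus strand, starts 105 bases from the first RefSeq start of STEAP2 and spans the whole of STEAP1. It had 1, 1 and 2 counts in PC3, 9, 9 and 10 with androgen and 2, 5 and 4 with vehicle. By summed counts, 28 against 11, it was 2.32-fold higher with androgen than with vehicle (exact 95% interval 1.12 to 5.17). These counts are near the detection limit, and they were taken from the strand opposite to STEAP1 and STEAP2.

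The nearest match to each profile among 12842 other genes was searched by the same distance over the 9 libraries, as a description. CDH1, which encodes E-cadherin, was closest to STEAP2 at 0.08, with 11.3 CPM in PC3, 657 with androgen and 549 with vehicle. MARVELD3, MYO6, MSI1 and ZNF208 followed. The log2 CPM used a prior count of 2, which shrinks differences of genes near 0. ZNF208 thus ranked here with 0.0132 CPM in PC3, 6.37 with androgen and 6.75 with vehicle. For STEAP1 the closest were ELMO3 at 0.13, SERINC5, LOC107985246, RIPOR2 and C13orf46. For STEAP3 they were ZNF26 at 0.08, ALMS1, ORAI2, ZNF623 and MREG. STEAP4 had no match as close. SLC38A4, an amino acid transporter, was nearest at 0.94, with 0.200 CPM in PC3, 15.4 with androgen and 0.0339 with vehicle. SLC2A3, CSGALNACT1, KRT6B and TRIM49D2 followed. KRT6B, at 0 CPM with vehicle, and TRIM49D2, at 0 CPM in PC3, share the limit near 0.

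The genes around the members were also described, within 500 kb on either side. Near STEAP1 and STEAP2, 4 of 6 other genes were tested. CFAP69, which starts 90.7 kb downstream of the STEAP1 start, was lower in PC3 by log2 fold changes of -4.60 against androgen-treated and -3.62 against vehicle-treated LNCaP, and CLDN12, a tight junction claudin, by -2.76 and -1.34. CDK14, a cyclin-dependent kinase 312 kb from the STEAP1 start, went the other way, at 3.13 and 2.31. GTPBP10, which lies between CFAP69 and CLDN12, had log2 fold changes of -0.97 and -0.75 and was not called, although the first became -1.05 to -1.07 when an androgen-treated library was left out, replicate 1, 2 or 3. Between androgen and vehicle CLDN12 rose by 1.40 on the log2 scale, and CFAP69 was at 0.95 without a call and at 1.03 without androgen-treated replicate 1.

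Around STEAP3, 5 of 11 other genes were tested between PC3 and LNCaP. Against androgen-treated LNCaP, 2 were called higher in PC3 and 2 lower, beside 46.0% of all genes tested. Against vehicle-treated LNCaP 1 was called higher, EN1, beside 43.2% of all genes tested. PTPN4, a tyrosine phosphatase, was higher in PC3 than in androgen-treated LNCaP (log2 fold change 1.45) and at 0.56 against vehicle without a call. EN1, a homeobox gene, had 122, 99 and 187 counts in PC3 and at most 1 in any LNCaP library. It passed the filter only through PC3, so its calls are not read against these shares. DBI, which encodes the acyl-CoA-binding protein, starts 143.1 kb from STEAP3 and was lower in PC3 than in androgen-treated LNCaP (log2 fold change -2.88) but not called against vehicle (-0.55). It rose with androgen (2.31, adjusted p = 9.31e-13), and so did its divergent neighbour C2orf76 (1.59), while STEAP3 stood at -0.44 in that comparison. Around STEAP4, 5 of 7 other genes were tested between PC3 and LNCaP and 4 between androgen and vehicle. Against androgen-treated LNCaP 1 was called higher in PC3 and 1 lower, beside 46.0% of all genes. Against vehicle-treated LNCaP 2 were higher and 1 lower, beside 43.2%. RUNDC3B, at 20.8 CPM in PC3, 0.207 with androgen and 0.320 with vehicle, passed the filter only through PC3. SLC25A40 was lower in PC3 at -1.17 in both, the first without a call when PC3 replicate 3 was left out (-0.88). SRI, which encodes sorcin and is the closest to STEAP4, was called higher in PC3 only against vehicle-treated LNCaP (1.03). That call was lost by library size alone (0.94). Between androgen and vehicle SRI was at 0.20, and ADAM22 was called lower at -1.26. Between androgen and vehicle, the tested genes of all 3 windows that are no members ranged from -1.26 to 2.31, beside 9.45 for STEAP4.

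**Figure D4:**
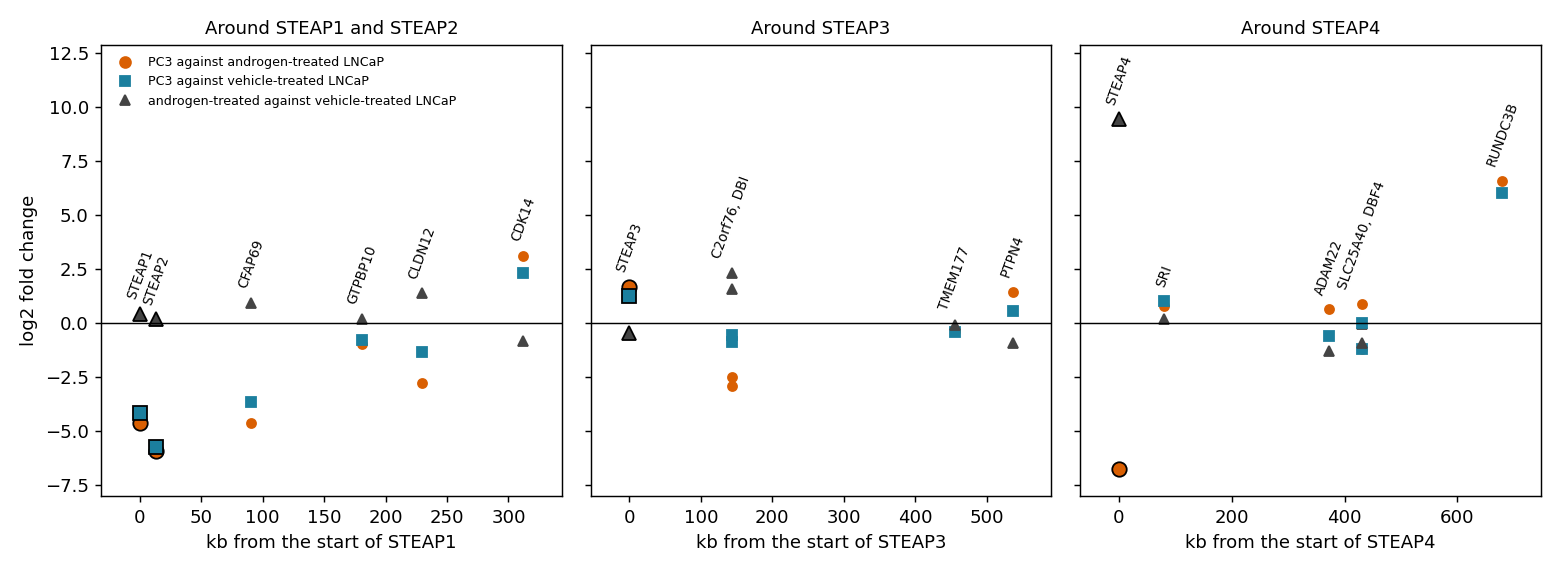
Log2 fold changes of the tested genes with any part within 500 kb of the members, by distance in kb of each gene's start from the start of STEAP1, STEAP3 or STEAP4 (positive in the direction of transcription), with the members outlined in black. CFAP69 and CLDN12 share the low PC3 values of STEAP1 and STEAP2, and CDK14 does not. Values against a group whose libraries all held at most 3 counts are left out.

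The other genes of metal reduction and transport were taken from 6 lists of 67 genes in all. Of the 49 tested between PC3 and androgen-treated LNCaP, 5 were called higher and 14 lower in PC3. These were 38.8%, against 46.0% of all genes tested (median log2 fold change -0.35, against 0.04 over all genes). Against vehicle-treated LNCaP, 5 of 50 were higher and 10 lower, 30% against 43.2% of all genes (median -0.42, against 0.03). Between androgen and vehicle, 3 of 49 were higher and 2 lower, 10.2% against 14.0% of all genes (median 0.11, against -0.01). These counts are given as a description, since some called genes passed the filter only through the group where they are high. Such entry selects for a difference. They were CYBRD1 and HFE between the lines, BMP6 in both comparisons with vehicle-treated LNCaP, and NOX5 in PC3 against vehicle.

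Iron uptake had 7 genes tested between the lines. CYBRD1, the duodenal ferrireductase of another enzyme family, was detected mainly in PC3, with 136, 131 and 260 counts there, 4, 3 and 4 with androgen and 1, 0 and 1 with vehicle. By summed counts it was 40.6-fold higher in PC3 than with androgen (exact 95% interval 22.5 to 81.8) and 204-fold higher than with vehicle (56.1 to 1687). HFE, which binds the transferrin receptor, had 0 counts in all 3 PC3 libraries, 71, 76 and 76 with androgen and 117, 129 and 148 with vehicle, at least 87.7-fold and 169.9-fold more than the 3 counts over the PC3 group that a count of 0 allows. SLC11A2, the endosomal iron importer, was lower in PC3 (log2 fold change -1.76 against androgen and -1.17 against vehicle). MCOLN1 was called higher in PC3 (1.21 and 1.66), and SLC39A14 only against androgen (1.01, and 0.65 against vehicle). SLC39A8, a zinc and iron importer, was called lower in PC3 only against vehicle (-1.69, and -0.01 against androgen). TFRC, the transferrin receptor, was not called in any comparison (-0.47, -0.44 and 0.01). With androgen, SLC39A8 was called lower (-1.70), and SLC11A2 was at 0.57 without a call.

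Iron storage rests on ferritin. FTH1, the ferritin heavy chain, was called higher in PC3 (log2 fold change 1.79 against androgen and 1.60 against vehicle), with 2808, 2420 and 5526 CPM in the PC3 libraries. PC3 replicate 3 stood apart, and without it the values were 1.46 and 1.24 and still called. FTL, the light chain, was at 0.82 against androgen and called at 1.02 against vehicle, a call lost without vehicle replicate 1, 2 or 3 (0.94, 0.94 and 0.89). It was also lost by library size alone (0.94) and with all 9 libraries in a single fit (0.9998). Of FTH1 and FTL stretches, 15% and 12% also occurred elsewhere in the genome or transcripts, genes with many processed copies. IREB2 and FBXL5, which sense iron, were lower in PC3 (log2 fold changes -1.74 and -1.72 against androgen, -1.67 and -1.68 against vehicle). SLC40A1, the iron exporter ferroportin, was under the filter, with 32, 39 and 37 counts in PC3, 11, 9 and 8 with androgen and 15, 24 and 19 with vehicle.

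Heme, copper and other reductase genes completed the lists. FECH, which inserts iron to form heme, was lower in PC3 by log2 fold changes of -3.33 against androgen and -2.33 against vehicle. Between androgen and vehicle it was at 0.99, just under the limit, and at 1.01 without androgen-treated replicate 2. HMOX1, which breaks heme down, was called higher with androgen (1.12), a call lost without androgen-treated replicate 1 (0.94). The copper importer SLC31A1 was lower in PC3 (-1.23 against androgen, called, and -0.84 against vehicle, not called), and the copper pump ATP7A was lower at -1.59 and -1.78. COX11 was higher in PC3 (1.11 against androgen, called, and 0.85 against vehicle, not called), a call lost without androgen-treated replicate 3 (0.96). Of 13 copper genes tested, 1 was called higher and 5 lower against androgen (46.2%, against 46.0% of all genes). Against vehicle 1 was called lower (7.69%, against 43.2%). CYB561, the transmembrane reductase of secretory vesicles, was lower in PC3 at -1.79 and -1.41. With androgen, SLC31A2 (1.20) and CYB561D2 (1.14) were called higher, and BMP6, which signals iron status, was called lower (-1.81) after passing the filter only through the vehicle-treated group. By library size alone CYB561D2 was at 0.99 and HMOX1 at 0.96, both then without a call.

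**Figure D5:**
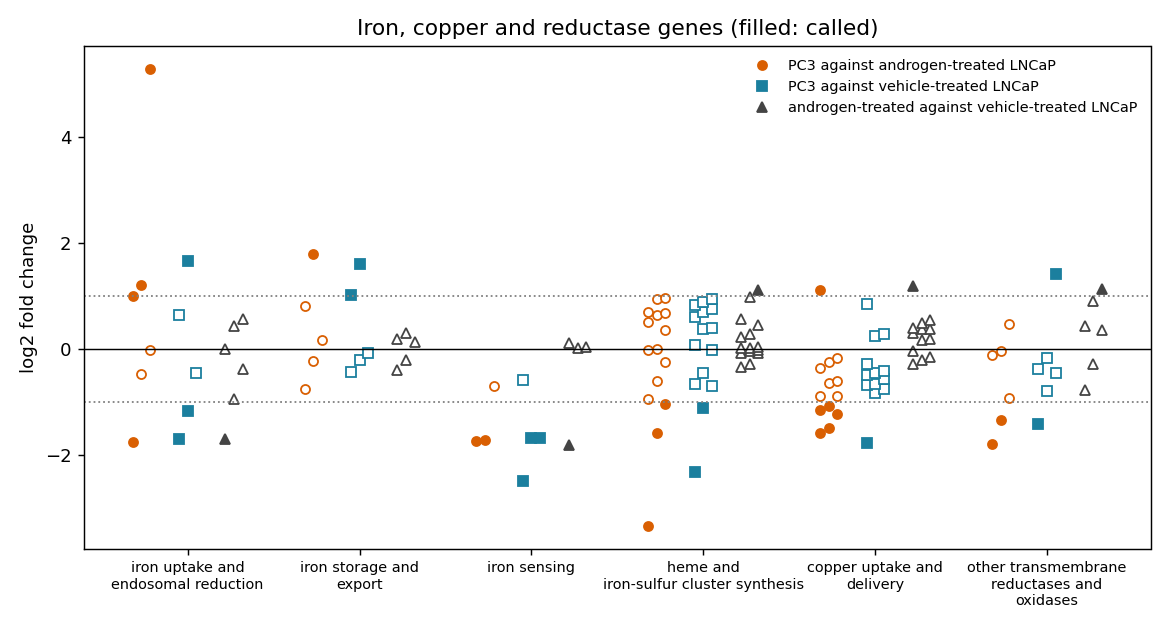
Log2 fold changes of the tested genes of the 6 lists in the 3 comparisons, with filled symbols for called genes and dotted lines at a 2-fold change. Most symbols are open and lie between the dotted lines. Values against a group whose libraries all held at most 3 counts, such as HFE against PC3, are left out.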

How the data were processed

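The authors sequenced polyadenylated RNA, and per the labels their processing notes name cutadapt 4.1, STAR 2.7.7a and UMI-tools 1.1.2 on GRCh38. The deposited table holds whole-number counts per gene symbol, equal in 253944 of 253944 values to the forward-strand column of the deposited STAR counts. The reverse strand held at most 3.06%. Reads on no gene (20.3% to 25.4%) stayed out of the totals. Members and lists were chosen with earlier results of these data known.

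For every comparison, only its 6 libraries entered the quasi-likelihood F test of edgeR 4.0.16 (R 4.3.3, TMM factors, genes over 3 CPM in at least 3 libraries), adjusted by Benjamini-Hochberg over all genes tested. The printed SE is the absolute log2 fold change divided by the square root of the F statistic. The study's unnamed batch term was left out. Printed CPM were scaled by TMM factors computed across the 9 libraries, and RPKM used the merged exons of GENCODE 44 (25696 of 28216 symbols matched). Low genes were compared by summed counts with exact binomial intervals, which cover counting error only. Paired numbers were checked by correlating deviations from the group means over 10262 genes. Same-numbered LNCaP libraries correlated at 0.68, 0.43 and 0.32, and for PC3 they did not (-0.12 to 0.05). Replicate 1 of either LNCaP group stood apart from the other numbers of the other group (-0.37 to -0.52). Androgen-treated replicate 3 correlated at 0.36 with vehicle replicate 2, and androgen-treated replicate 2 at 0.23 with vehicle replicate 3. The numbers thus pair replicate 1, while replicates 2 and 3 could not be paired by number. The scripts were tested on simulated data. Alternatives were DESeq2 1.42.0, other scalings, filters and strands, a replicate block and leaving out each library. Named beyond the members were the genes of 6 pathway lists (the called ones with the largest changes and 7 fixed ones), genes within 500 kb and the 5 most alike per member.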

Additional observations from a re-analysis of the deposited data

How the results depend on the processing

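The directions of the STEAP fold changes held in every alternative that gave a value, and no call was lost there. STEAP4 had no value where an androgen-treated library was left out or, between androgen and vehicle, where at least 10 counts were required in every library, since it then failed the filter. Calling by the adjusted p alone adds STEAP1 (0.45), STEAP2 (0.19) and STEAP3 (-0.44) between androgen and vehicle. It calls 10530, 10577 and 8763 genes against androgen, against vehicle and between the LNCaP groups, and 39, 44 and 37 genes of the 6 lists. With no filter on low counts, 9147, 8713 and 2941 genes were called, and 23 and 12 list genes in the latter comparisons. By library size alone the mean CPM with androgen and vehicle were 395 and 321 for STEAP1, 852 and 830 for STEAP2 and 13.5 and 20.4 for STEAP3. That scaling, chosen after seeing the data, moved the median log2 fold change of all genes to 0.12, -0.06 and -0.16. Per longest transcript, RPKM in PC3, androgen and vehicle were 13.9, 343 and 251 for STEAP1 and 2.13, 129 and 113 for STEAP2, those of STEAP3 were 3.35 and 4.56 with androgen and vehicle, and STEAP4 in PC3 was 0.154. The cause was not tested for any of these beyond their construction. With the replicate block the LNCaP fit gave 0.45, 0.19, -0.44 and 9.45 for STEAP1 to STEAP4 and changed no call. In PC3 fits, where the numbers do not pair the libraries, 5756 and 5495 genes were called with the block. Of 2964 further values of other genes, none reversed.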
